A study of Mus musculus with 2 samples.

Results

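Corticotropes are the pituitary cells that make adrenocorticotropic hormone from the precursor encoded by Pomc. They were examined here in dissociated whole pituitaries. The donors were C57BL/6 males, 7 weeks old and caged singly, with no treatment, transgene or comparison group. The glands were taken as 2 pools of 3 glands each, and every pool gave 1 droplet library of 3′ transcript ends counted by unique molecular identifier (UMI). Corticotropes were chosen by a gate on measured values: cells with no fewer than 250 genes and no more than 20% of UMIs from mitochondrial genes, in which Pomc made up 1 to 20% of UMIs, Pcsk2 had at most 1 UMI, Gh and Prl each stayed under 10% and Cga under 1%. The gate held 532 of 13663 barcodes, 223 in library 1 and 309 in library 2. Inside the gate, cells with at least 1 UMI of Npas4 or Egr4 are called active and cells with none quiet, which gave 269 active and 263 quiet corticotropes. The names stand for a count of 2 transcripts, and a cell without a UMI may still express either gene.

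Corticotropes receive corticotropin-releasing hormone from the hypothalamus through the receptor Crhr1 and vasopressin through Avpr1b, and the glucocorticoids that follow from adrenocorticotropic hormone act back on them through the glucocorticoid receptor Nr3c1. Receptor signals and calcium entry in excitable cells switch on immediate early genes within minutes, before any new protein is made. Npas4 and Egr4 encode transcription factors of this class, and Npas4 is known from neurons as a factor that follows calcium entry. Corticotropes share Pomc and the lineage factor Tbx19 with melanotropes of the intermediate lobe, which cut the precursor further with the protease encoded by Pcsk2.

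Of the genes that split the cells, Npas4 lies on chromosome 19 from 4984355 to 4990316 and Egr4 on chromosome 6 from 85511121 to 85513589, both on the minus strand of mm10. The promoters of 2 other immediate early genes that the results turn on, Nr4a1 and Fos, are shown beside that of Egr4 because all of them hold the core of the cyclic AMP response element, TGACG, which is known as a binding motif of the factor CREB. The windows are the 250 bases before the annotated RefSeq start in GRCm38.p6, written 5′ to 3′ on the gene's strand, with every TGACG or its reverse complement CGTCA in capitals. Egr4 is taken from chr6:85513590-85513839 on the minus strand, Nr4a1 from chr15:101266596-101266845 on the plus strand and Fos from chr12:85473640-85473889 on the plus strand. The Nr4a1 window lies in an intron of a longer annotated transcript of that gene. For Npas4 the window falls in the first exon of a longer annotated transcript, and only the 30 bases around its matches are given, from chr19:4990129-4990158 on the minus strand.
Npas4: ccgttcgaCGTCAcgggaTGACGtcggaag
Egr4: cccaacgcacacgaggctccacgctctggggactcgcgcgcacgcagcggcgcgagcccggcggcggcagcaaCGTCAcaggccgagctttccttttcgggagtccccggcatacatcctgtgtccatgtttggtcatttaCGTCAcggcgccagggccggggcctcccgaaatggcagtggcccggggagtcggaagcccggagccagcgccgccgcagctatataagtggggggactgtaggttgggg
Nr4a1: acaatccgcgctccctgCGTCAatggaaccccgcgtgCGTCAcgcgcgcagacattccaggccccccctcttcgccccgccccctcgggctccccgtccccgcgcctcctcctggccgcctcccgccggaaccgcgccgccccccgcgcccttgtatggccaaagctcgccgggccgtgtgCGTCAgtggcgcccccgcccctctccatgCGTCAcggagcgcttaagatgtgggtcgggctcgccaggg
Fos: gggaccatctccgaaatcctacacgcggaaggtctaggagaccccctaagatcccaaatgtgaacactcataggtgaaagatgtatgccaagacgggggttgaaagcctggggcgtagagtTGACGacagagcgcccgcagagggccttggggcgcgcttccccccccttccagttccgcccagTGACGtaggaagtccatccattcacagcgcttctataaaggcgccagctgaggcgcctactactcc

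The matches began 179 and 169 bases before the start in Npas4, 177 and 109 in Egr4, 129 and 66 in Fos, and 233, 213, 69 and 40 in Nr4a1. Of 32851 windows of this length, 17.8% held the 5 letters on either strand, 3.9% held them at least 2 times and 0.688% at least 3 times. Counted by gene, 14 of the 20 immediate early factors of the list used below that have a window held a match, which is 70.0%, beside 19.8% of 27025 genes. Most other lists were also above that share, with 6 of 8 POMC processing genes (75%), 10 of 18 effectors (55.6%) and 5 of 9 glucocorticoid genes (55.6%). Heat shock genes stood at 44.4%, endoplasmic reticulum genes at 43.8%, exocytosis genes at 38.5% and calcium and sodium channel genes at 35.7%. Genes of corticotropin-releasing hormone and vasopressin signalling stood at 28.6% and identity genes at 25% (2 of 8). Troponin genes (16.7%) and potassium channel genes (1 of 15, 6.67%) were below it. A match of letters describes the sequence and does not show that a factor binds there.

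Median depth per corticotrope was 4393 UMIs (1797 genes) in library 1 and 4166 UMIs (1719 genes) in library 2, with ranges of 2840 to 11566 and 2733 to 27290 UMIs. The libraries held 6546 and 7117 barcodes and 70813117 and 78861988 UMIs. They shared 54 barcode sequences, 7 of which belonged to a corticotrope in either library, and none was a corticotrope in both. All values come from these 2 libraries. A p-value rests on how far differences within a library vary between these 2 libraries, pooled over the populations in the fit. The test also draws the spread of each gene toward that of the other genes. Very small p-values therefore do not measure a gene's own variation between the 2 pools.

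The markers that the gate did not use went with the label. At least 1 UMI of the lineage factor Tbx19, the receptors Crhr1 and Avpr1b or the slow skeletal troponin gene Tnnt1 was present in 88.8% and 86.1% of corticotropes (libraries 1 and 2), in 34.6% and 36.6% of melanotropes, and in between 0.854% and 3.16% of somatotropes, lactotropes and gonadotropes. Active and quiet cells carried the label alike: 86.5% and 87.3% of active cells had such a UMI, against 91.1% and 84.8% of quiet cells. Markers of other cell types were low in the gate, and some differed between active and quiet cells in both libraries. UPM means UMIs per 1000000 UMIs outside Pomc, Pcsk2, Gh, Prl, Cga, Lhb, Npas4 and Egr4, the genes of the gates and the split. The 3 melanotrope markers Pax7, Drd2 and Oacyl summed to 0 and 0 UPM in active cells and to 0 and 6.60 in quiet cells. Drd2 was at 0 in melanotropes too, so only Pax7 and Oacyl are informative here. Lactotrope markers other than Prl summed to 25.6 and 15.3 UPM in active cells and to 9.21 and 9.90 in quiet cells, somatotrope markers other than Gh to 21.6 and 16.7 against 13.8 and 13.2, and stem cell markers to 35.4 and 201 against 29.9 and 92.4. Gonadotrope markers summed to 7.86 and 30.7 UPM in active cells and to 6.91 and 24.8 in quiet cells. These 4 sums were higher in active cells in both libraries. Thyrotrope markers were lower in active cells in both, at 11.8 and 9.75 UPM against 13.8 and 21.5 in quiet cells. The 5 endothelial markers summed to 7.86 and 68.3 UPM in active cells and to 73.7 and 144 in quiet cells, lower in active cells in both. Blood markers, most of them globin genes, stood apart in 1 set, at 3250 and 55.7 UPM in active cells against 62.2 and 129 in quiet cells. Thus 1 of the 4 sets of cells, active cells of library 1, carried most of the blood UMIs. In all, 31 corticotropes had UMIs of at least 2 markers of another type, 14 active and 17 quiet, and the test below was repeated without them. The part of the other markers in the results was not tested.

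Cells with an Npas4 or Egr4 UMI were more frequent among corticotropes than in any other hormone population measured (see the plot of shares by population). At full depth, active cells made up 49.8% of the corticotropes of library 1 and 51.1% of those of library 2, a mean of 50.5% ± 0.96 (SD, n = 2). The exact 95% intervals for counting error ran from 43.0 to 56.5% and from 45.4 to 56.8%. Gonadotropes followed at 28.4% and 23.4%, then lactotropes at 17.6% and 19.8%, somatotropes at 15.1% and 18.3% and melanotropes at 10.0% and 16.2%. In endothelial cells, which serve as the background from free RNA, the share was 2.38% and 1.21% at median depths of 4630 and 4404 UMIs. The corticotrope shares lay above all other shares in both libraries, while somatotropes overlapped both lactotropes and melanotropes, and lactotropes lay above melanotropes. An exact permutation test of 2 libraries against 2 cannot reach a p under 0.05, and the shares are given without a test.

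Corticotropes were not the most deeply sampled cells. Their median depth outside the gate genes was 4058 and 3900 UMIs, below the 7949 and 8368 UMIs of gonadotropes and the 5644 and 5764 UMIs of lactotropes. When each cell was thinned to 2000 UMIs, 39.5% and 39.8% of corticotropes still had an Npas4 or Egr4 UMI, a mean of 39.6% ± 0.24 (SD, n = 2). The other hormone populations then lay between 4.95% and 11.3%, and endothelial cells at 0.794% and 0.606%. No corticotrope was too shallow to be thinned, against 296 and 144 somatotropes, 23 and 16 lactotropes, 9 and 7 melanotropes and 1 and 0 gonadotropes, which were left out.

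**Figure D1:**
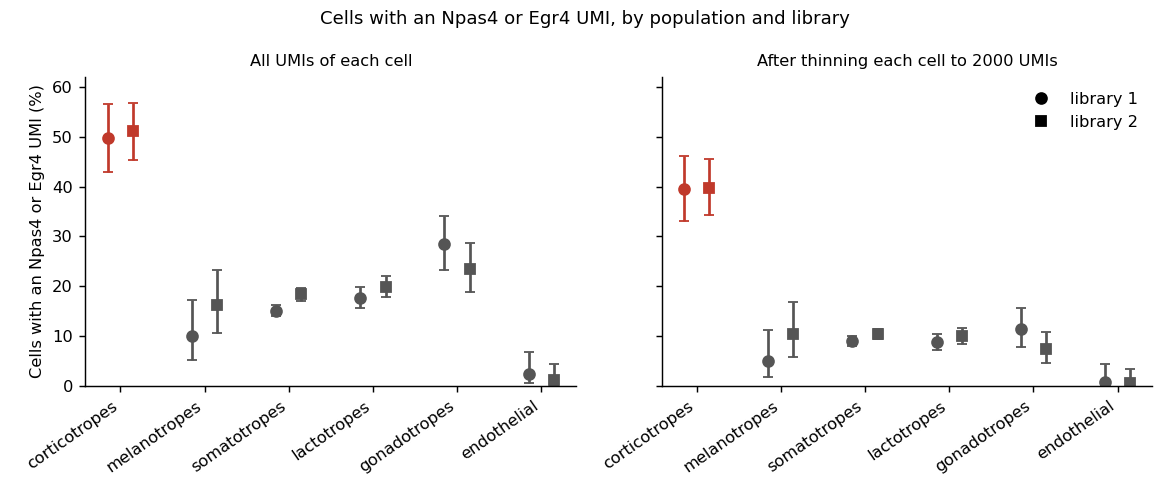
Percentage of cells with at least 1 UMI of Npas4 or Egr4 (y axis) in corticotropes (red) and 5 other populations (grey), at full depth (left) and after thinning each cell to 2000 UMIs (right). Circles are library 1, squares library 2, and bars are 95% exact binomial intervals, which cover counting error only; corticotropes lie at 49.8% and 51.1% at full depth and at 39.5% and 39.8% after thinning, above every other population in both panels.

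Npas4 carried most of the split. Of the 269 active corticotropes, 190 had UMIs of Npas4 only, 16 of Egr4 only and 63 of both. Egr4 was present in 24.9% of corticotropes with Npas4 and in 5.73% of those without it. Active cells had a median of 3 UMIs of the pair, 75 of them had 1 UMI, and the highest cell had 56. Over all cells of a population, Npas4 stood at 550 and 480 CPM (counts per 1000000, scaled to the UMIs outside the genes of the gates and the split) in corticotropes, against 79.5 CPM or less in each library of the other hormone populations. Egr4 stood at 165 and 206 CPM in corticotropes and at 13.6 CPM or less in the others. Neither gene was tested, since both define the split.

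On the authors' t-SNE map, active and quiet corticotropes shared 1 elongated group of cells but were unevenly placed in it. Among the 15 nearest corticotropes of each active cell, the median share of active cells was 80% in library 1 and 73.3% in library 2. For quiet cells the median was 20% and 26.7%. The medians of active cells lay above those of quiet cells in both libraries. A few cells of the gate lay among other cells: 4 and 13 active and 12 and 17 quiet corticotropes had fewer than 50% corticotropes among their 15 nearest neighbours. The map was made by the authors from the same cells, so it describes the split and does not test it.

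**Figure D2:**
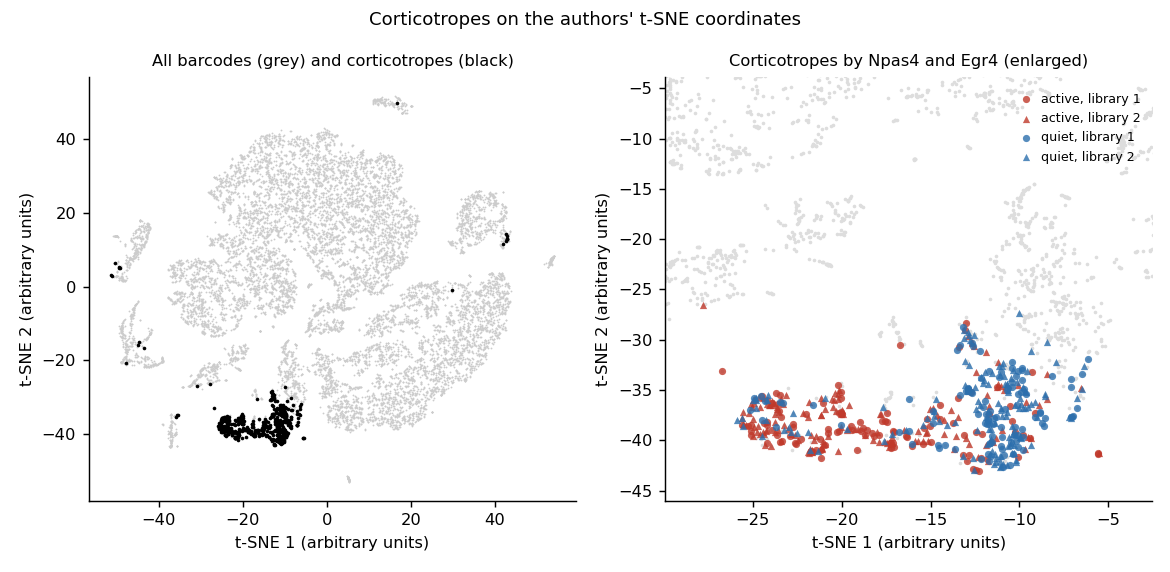
The authors' t-SNE coordinates in arbitrary units, with all barcodes in grey and corticotropes in black (left) and an enlargement with active corticotropes in red and quiet ones in blue (right); circles are library 1 and triangles library 2. Active cells of both libraries prevail in the left arm of the group and quiet cells in its right arm, with both kinds present in each, and a few corticotropes lie outside it.

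To compare the 2 kinds of cell, active corticotropes were matched 1 to 1 with quiet ones of the same library and of like depth, which left 105 and 140 cells of each kind in libraries 1 and 2. Median depth after matching was 4265 and 3886 UMIs in active cells against 3865 and 3923 in quiet cells. Counts were summed per library and kind, together with those of 4 other hormone populations split the same way. They were tested with edgeR's quasi-likelihood test with library as a block and Benjamini-Hochberg adjustment. Of 10006 genes tested, 277 passed an adjusted p of 0.05, which is 2.77%: 223 were higher in active corticotropes (2.23%) and 54 lower (0.54%). The median log2 difference over all genes was -0.0036. With the 31 cells that carried markers of another type left out, a choice made after seeing the data, 303 genes passed, and 244 of the 273 earlier calls that could still be tested were among them.

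By rule, the genes named here were called, reached 50 CPM in the higher group and had the same direction in both libraries. Predicted genes were left out. Non-overlap of the groups in these genes thus follows in part from the choice. Among them, Atf3 rose most in active corticotropes, and 3 further genes of the 15 that rose most are given in full with it. Atf3, a stress-responsive transcription factor, stood at 1353 and 1391 CPM in active cells, against 117 and 243 CPM in quiet cells. Both active libraries lay far above both quiet ones, a log2 difference of 2.89 ± 0.23 (SE; edgeR adjusted p = 1.38e-06). Zfp36, which encodes a protein that speeds the decay of AU-rich messenger RNAs, stood at 347 and 648 CPM in active cells, against 79.4 and 107 CPM in quiet cells. The groups did not overlap, with a log2 difference of 2.42 ± 0.16 (adjusted p = 4.37e-42). Arc, an activity-regulated gene best known from synapses, stood at 257 and 260 CPM in active cells against 37.4 and 67.6 CPM in quiet cells. The groups did not overlap, with a log2 difference of 2.26 ± 0.21 (adjusted p = 2.34e-22). Dnajb1, a co-chaperone of HSP70, reached 4686 and 3825 CPM in active cells against 675 and 1191 CPM in quiet cells. The groups did not overlap, and the log2 difference was 2.23 ± 0.26 (adjusted p = 8.36e-04).

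The other 11 genes made up the 15 with the largest rise at 50 CPM or more, with log2 differences between 2.07 and 2.62. They were the kinase gene Sgk1, the co-chaperone gene Bag3, the ubiquitin ligase gene Siah2, the repressor gene Nfil3, the orphan nuclear receptor gene Nr4a1, Csrnp1, the receptor-signalling inhibitor gene Errfi1, the small MAF factor gene Maff, the collagen chaperone gene Serpinh1, the growth-arrest gene Gadd45b and Atcayos. Atcayos is annotated antisense to Atcay and overlaps it over 6370 bases. No source used here says whether the counting used strand, and reads of the pair may not be told apart. Atcay itself stood at 20.7 and 15.2 CPM in active cells against 4.67 and 23.7 CPM in quiet cells.

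**Figure D3:**
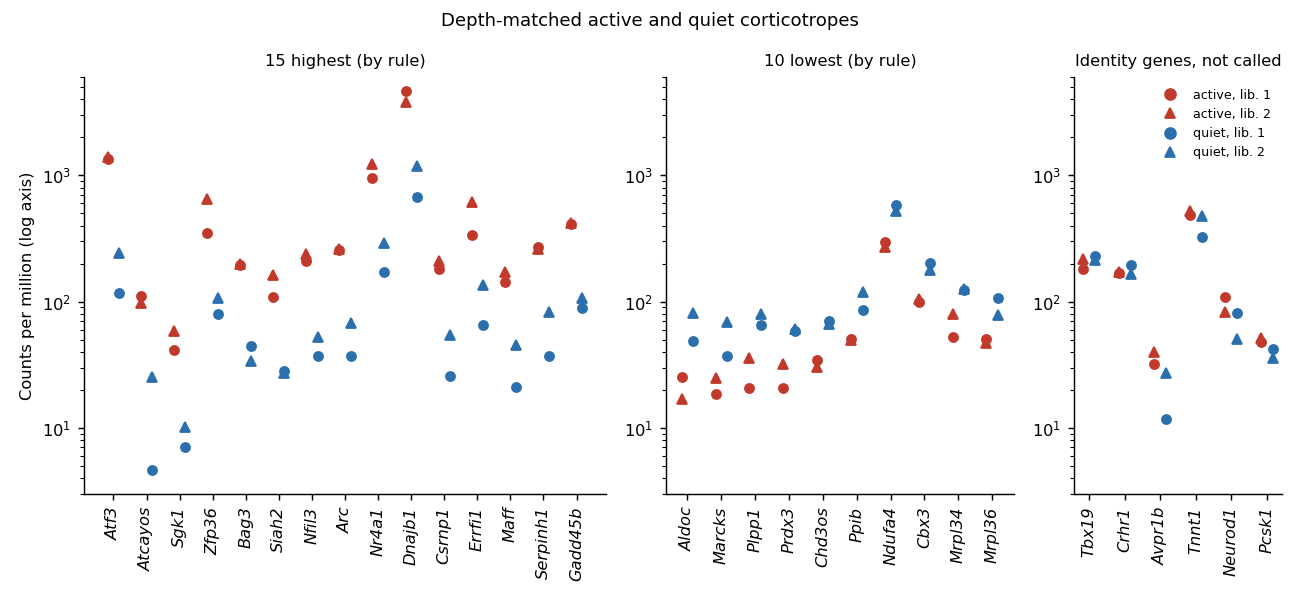
CPM on a log axis for depth-matched active (red, left of each pair) and quiet (blue) corticotropes in library 1 (circles) and library 2 (triangles), for the 15 genes with the largest rise, the 10 with the largest fall and 6 identity genes. The 25 genes of the left and middle panels were picked as calls with the same direction in both libraries. Both active libraries lie on the same side of both quiet ones in each, which follows in part from that choice. They run from Atf3 (1353 and 1391 against 117 and 243 CPM) to Mrpl36 (50.5 and 47.4 against 107 and 77.7 CPM). None of the 6 identity genes passed the test.

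Immediate early transcription factors other than the 2 that define the split rose together. Of 25 tested list members, 20 were higher in active corticotropes and none lower, with a median log2 difference of 1.64 against -0.0036 over all genes. Fos, a partner in the AP-1 factor, stood at 3716 and 4405 CPM in active cells against 1279 and 1568 CPM in quiet cells, a log2 difference of 1.52 ± 0.23 (adjusted p = 4.29e-03). Quiet cells were therefore lower but not without Fos. Its partner gene Jun stood at 2435 and 2492 CPM in active cells against 532 and 742 CPM in quiet cells. Jun differed by 1.98 ± 0.23 on the log2 scale (adjusted p = 7.06e-04), and Fosb by 2.00 ± 0.13 (adjusted p = 2.96e-39). Nr4a1, known as a mediator of hormone-driven Pomc transcription, stood at 956 and 1236 CPM in active cells against 173 and 289 CPM in quiet cells. Its rise was 2.23 ± 0.37 on the log2 scale (adjusted p = 8.45e-03). Egr2, a relative of Egr4, was low, at 25.3 and 64.4 CPM in active cells against 2.33 and 3.38 CPM in quiet cells, and had the largest difference of the list (3.94 ± 0.63, adjusted p = 1.39e-07). The 5 members without a call were Fosl1, Nr4a2, Ier3, Klf2 and Klf6, with log2 differences between -0.17 and 1.58. Egr3 and Myc were too low to be tested.

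Effectors and feedback genes of activity moved in part. Of 23 tested, 10 rose and none fell, with a median log2 difference of 1.25. Gadd45b rose by 2.07 ± 0.17 and Gadd45g by 2.06 ± 0.21, while the clock gene Per1 rose by 1.59 ± 0.21. The clock-output repressor gene Nfil3 and the scaffold gene Homer1 rose by 2.30 ± 0.22 and 2.20 ± 0.46. The phosphatase gene Dusp14, the small GTPase gene Gem, the pseudokinase gene Trib1, the granule peptide gene Vgf and Arc made up the rest. Dusp1, an immediate phosphatase of MAP kinases, did not pass, at 450 and 745 CPM in active cells against 346 and 377 CPM in quiet cells (log2 difference 0.72 ± 0.32, adjusted p = 0.42). Crem, whose short product represses cyclic AMP targets, was likewise not called, at 94.2 and 144 CPM in active cells against 91.0 and 76.0 CPM in quiet cells.

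Chaperones of the heat shock response were higher in active cells. Of 12 genes tested, 10 rose and none fell, with a median log2 difference of 1.42. Hspa8, the constitutive HSP70, stood at 5719 and 5328 CPM in active cells against 1863 and 2577 CPM in quiet cells. Hsp90aa1 stood at 2251 and 2286 CPM in active cells against 927 and 957 CPM in quiet cells, and Hspe1, a mitochondrial co-chaperonin gene, rose by 1.43 ± 0.10 (adjusted p = 4.20e-38). Hspa1a and Hspb1 had differences of 1.42 ± 0.41 and 1.67 ± 0.43 without passing (adjusted p = 0.15 and 0.093). Hspa1a and Hspa1b are near-identical copies, so the division of reads between them is uncertain. Per the labels the glands were digested with enzymes for hours before capture. The part of that step in these and the immediate early genes was not tested.

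Genes of the endoplasmic reticulum moved in part. Of 18 tested, 7 rose and none fell, with a median log2 difference of 0.44. Transcription factor genes of the stress response were among them: Ddit3 stood at 540 and 751 CPM in active cells against 180 and 137 CPM in quiet cells (2.05 ± 0.14, adjusted p = 3.21e-36), and Atf4 at 480 and 457 CPM against 154 and 199 CPM (1.39 ± 0.14). The chaperone gene Hspa5 reached 2127 and 2121 CPM in active cells against 712 and 739 CPM in quiet cells, a log2 difference of 1.55 ± 0.20. Herpud1 and Hyou1 rose by 1.45 ± 0.14 and 1.40 ± 0.42, and Manf and Dnajb9 by 0.42 ± 0.11 and 0.56 ± 0.15. The call of Hyou1 was lost in 7 alternatives, that of Manf in 5 and that of Dnajb9 in 2. The disulfide isomerase genes Pdia3, Pdia4 and Pdia6 and the lectin chaperone genes Calr and Canx were not called, with log2 differences between -0.35 and 0.30. Of the splicing target Xbp1 only the whole gene is counted, at 156 and 140 CPM in active cells against 112 and 105 CPM in quiet cells, without a call.

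Glucocorticoid-related genes moved in part. The receptor gene Nr3c1 stood at 257 and 195 CPM in active cells against 203 and 188 CPM in quiet cells, which did not pass (log2 difference 0.20 ± 0.16, adjusted p = 0.71). The widely used target genes Fkbp5 and Tsc22d3 did not pass either: Fkbp5 stood at 45.9 and 64.4 CPM in active cells against 53.7 and 57.5 CPM in quiet cells, and Tsc22d3 at 64.3 and 72.0 CPM against 53.7 and 55.8 CPM. Of 11 genes on the list 4 rose, Sgk1, Klf9, Errfi1 and Cdkn1a, which are also known to respond to other signals. Klf9 stood at 476 and 461 CPM in active cells against 152 and 233 CPM in quiet cells (1.25 ± 0.14, adjusted p = 6.52e-16). Hsd11b1, which encodes an enzyme that regenerates active glucocorticoid, was listed at 0 in both active sets against 9.34 and 15.2 CPM in quiet cells. That is at least 4.19-fold lower, with a floor of 3 counts over the active group, and the call rested on few counts: it was lost in 6 alternatives, and with all quiet cells kept the difference was 0.47 (adjusted p = 0.93). The list's median log2 difference was 0.32, also with Hsd11b1 at its bound.

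**Figure D4:**
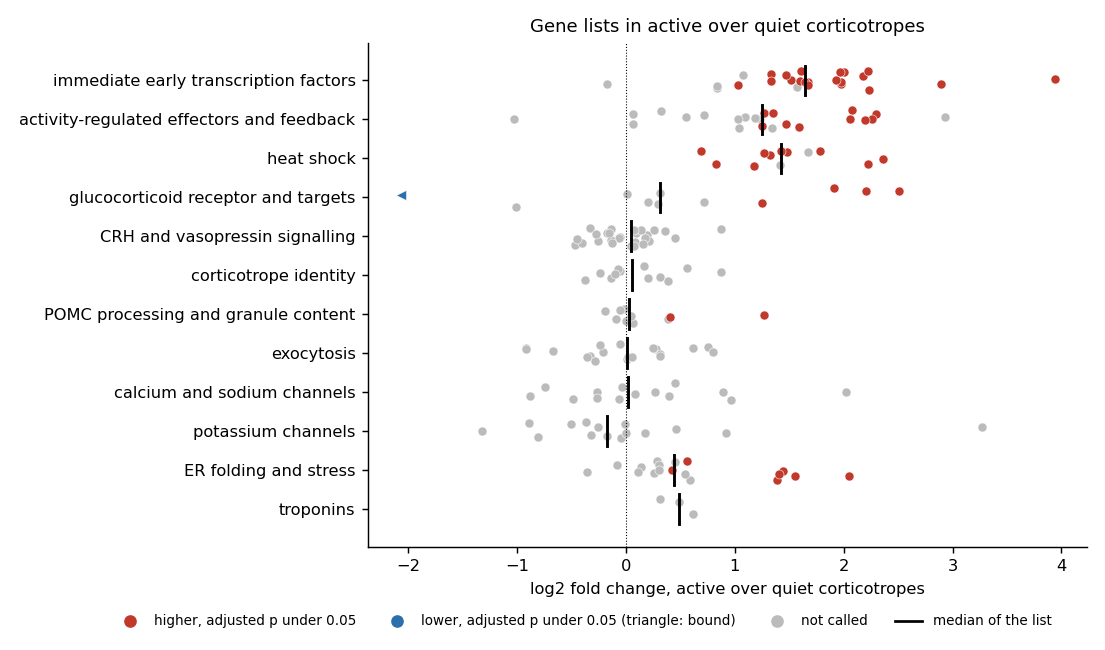
Log2 fold change of active over quiet corticotropes (x axis) for the tested members of 12 gene lists, 1 point a gene; red points were called higher, blue lower and grey not called at an adjusted p of 0.05, black bars are list medians, and the triangle is Hsd11b1 at its bound. Medians are 1.64 for immediate early factors, 1.42 for heat shock and 1.25 for effectors, and between -0.17 and 0.05 for CRH and vasopressin signalling, identity, processing, exocytosis and both channel lists.

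No gene of corticotrope identity or exocytosis passed between the 2 kinds of cell. Of 12 identity genes edgeR and DESeq2 called 0, 1 had an unadjusted edgeR p under 0.05, and the median log2 difference was 0.05. Tbx19 stood at 182 and 218 CPM in active cells against 229 and 215 CPM in quiet cells, overlapping values with a log2 difference of -0.14 ± 0.17 (adjusted p = 0.85). Crhr1 stood at 170 and 173 CPM in active cells against 194 and 166 CPM in quiet cells (log2 difference -0.06 ± 0.19, adjusted p = 0.95). The receptor levels thus overlapped as well. Of 3 tested troponin genes 0 were called by either tool and 1 had an unadjusted edgeR p under 0.05. Tnnt1 stood at 487 and 519 CPM in active cells against 322 and 478 CPM in quiet cells (0.31 ± 0.29, adjusted p = 0.79). Avpr1b was low, at 32.2 and 39.8 CPM in active cells against 11.7 and 27.0 CPM in quiet cells, and its difference of 0.88 ± 0.54 did not pass (adjusted p = 0.58). A p that misses the threshold does not show that these levels are equal, and for Avpr1b the SE leaves room for a large difference.

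No gene was called in the list of receptor and transduction genes for corticotropin-releasing hormone (CRH) and vasopressin. Nr4a1 and Fos, called above, are not on it. Of 27 tested members of the list for CRH and vasopressin signalling, edgeR and DESeq2 called 0, and 0 had an unadjusted p under 0.05. Among them were the G protein genes Gnas, Gnaq and Gna11, the kinase subunit genes Prkaca, Prkacb and Prkar1a and the coactivator genes Crtc1, Crtc2 and Crtc3. Their differences lay between -0.47 and 0.88 with a median of 0.05. Neither tool called any of 19 exocytosis genes, 14 calcium and sodium channel genes and 15 potassium channel genes, with medians of 0.01, 0.02 and -0.17. Their unadjusted edgeR p was under 0.05 in 2, 0 and 2 genes. Snap25, a core fusion protein gene, stood at 418 and 375 CPM in active cells against 472 and 448 CPM in quiet cells. In each channel list 10 genes averaged under 30 CPM in both kinds of cell, so differences among them were poorly resolved at this depth. In simulated counts for this comparison, 50% of 2-fold and 92% of 4-fold changes were recovered, with the lowest genes left unchanged. A list without a call thus does not exclude 2-fold changes in its genes.

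Of the genes for cutting and packing the precursor, 2 of 10 were called, both higher in active cells. The convertase gene Pcsk1 stood at 48.2 and 51.2 CPM in active cells against 42.0 and 35.5 CPM in quiet cells, without a call. The trimming and amidating enzyme genes Cpe and Pam stood at 907 and 849 CPM and at 191 and 116 CPM in active cells, against 829 and 848 CPM and 201 and 125 CPM in quiet cells. The granin gene Chgb was called at 542 and 565 CPM in active cells against 453 and 385 CPM in quiet cells (0.41 ± 0.09, adjusted p = 9.45e-04), and Vgf at 34.5 and 79.6 CPM against 28.0 and 22.0 CPM (1.27 ± 0.36, adjusted p = 0.021). The call of Chgb was lost in 9 alternatives and that of Vgf in 6, always with the same direction. Pomc, which defines the gate and was not tested, stood at 59240 and 57610 CPM in active cells against 77890 and 69120 CPM in quiet cells. Of the other gate hormones, Gh stood at 13850 and 12860 CPM in active cells against 15440 and 13440 CPM in quiet cells, and Prl at 6222 and 8891 CPM against 3145 and 3822 CPM. All 6 corticotropes with 5 to 10% Prl were active. Their median depth outside the gate and split genes was 7654 and 9438 UMIs, against 4058 and 3900 over all corticotropes. None of the 3 and 3 corticotropes with 5 to 10% Gh was active. Over all cells of the gate, the median Prl share per cell was 0.300% and 0.353% in active cells, against 0.292% and 0.352% in quiet cells.

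Of the 54 genes that fell in active corticotropes, the 10 with the largest fall at 50 CPM or more are named here. The rule was that used for the rises, with the same direction in both libraries. Ndufa4, a subunit of the respiratory chain, stood at 299 and 273 CPM in active cells against 579 and 522 CPM in quiet cells. Both active libraries lay far below both quiet ones, a log2 difference of -0.95 ± 0.12 (adjusted p = 9.92e-13). The mitochondrial ribosomal genes Mrpl34 and Mrpl36 had log2 differences of -0.89 ± 0.22 and -0.89 ± 0.25, and the mitochondrial peroxidase gene Prdx3 of -1.14 ± 0.33. Their calls were lost in 3, 4 and 4 alternatives, and that of Ndufa4 in 1. The chromatin gene Cbx3 stood at 98.8 and 104 CPM in active cells against 203 and 179 CPM in quiet cells (-0.90 ± 0.18, adjusted p = 4.86e-05). The other named genes were the glycolytic gene Aldoc, Marcks, the lipid phosphatase gene Plpp1, the prolyl isomerase gene Ppib and the antisense transcript Chd3os, with log2 differences between -1.71 and -1.06. These calls were not stable: they were lost in 9 alternatives for Aldoc, 7 for Marcks, 6 each for Ppib and Chd3os and 5 for Plpp1. When all quiet cells were kept, the difference of Aldoc was 0.57 in the opposite direction, without a call.

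Several of these genes were graded with the number of Npas4 and Egr4 UMIs per cell. In cells with 0, 1, 2 to 3 and at least 4 such UMIs, Fos stood at 1342, 1694, 2088 and 5256 UPM in library 1 and at 1639, 2044, 2958 and 5164 in library 2. Dnajb1 stood at 681, 1981, 3767 and 5584 UPM in library 1 and at 1175, 2007, 2281 and 4592 in library 2. Both genes were higher at each step in both libraries. Ndufa4 went the other way, at 587, 422, 246 and 243 UPM in library 1 and 554, 461, 316 and 219 in library 2. Tbx19 showed no such order, at 244, 160, 254 and 149 UPM in library 1 and 220, 154, 236 and 185 in library 2. Median depth outside the gate and split genes was 3775 and 3776 UMIs in cells with 0 such UMIs and 4309 and 4040 UMIs in cells with at least 4. The bins held between 26 and 151 cells and are a description without a test.

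Activity also varied with the Pomc share. In cells with 1 to 2%, 2 to 4%, 4 to 8% and 8 to 20% Pomc, 64.3%, 55.2%, 54.2% and 29.6% were active in library 1 and 54.4%, 58.6%, 57.8% and 31.1% in library 2. The fall stood in the highest class, and the lower classes differed little and in no common order. Tnnt1 was lower at each step of Pomc in both libraries, at 831, 600, 275 and 116 UPM in library 1 and 670, 657, 364 and 136 in library 2. The cardiac troponin gene Tnni3 stood at 136, 152, 98.3 and 38.7 UPM in library 1 and 104, 127, 84.6 and 41.0 in library 2. In contrast, Crhr1 stayed between 122 and 207 UPM in all classes of both libraries. The total of this scale leaves out Pomc and the other genes of the gates and the split. These values are a description, since Pomc chose the cells.

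**Figure D5:**
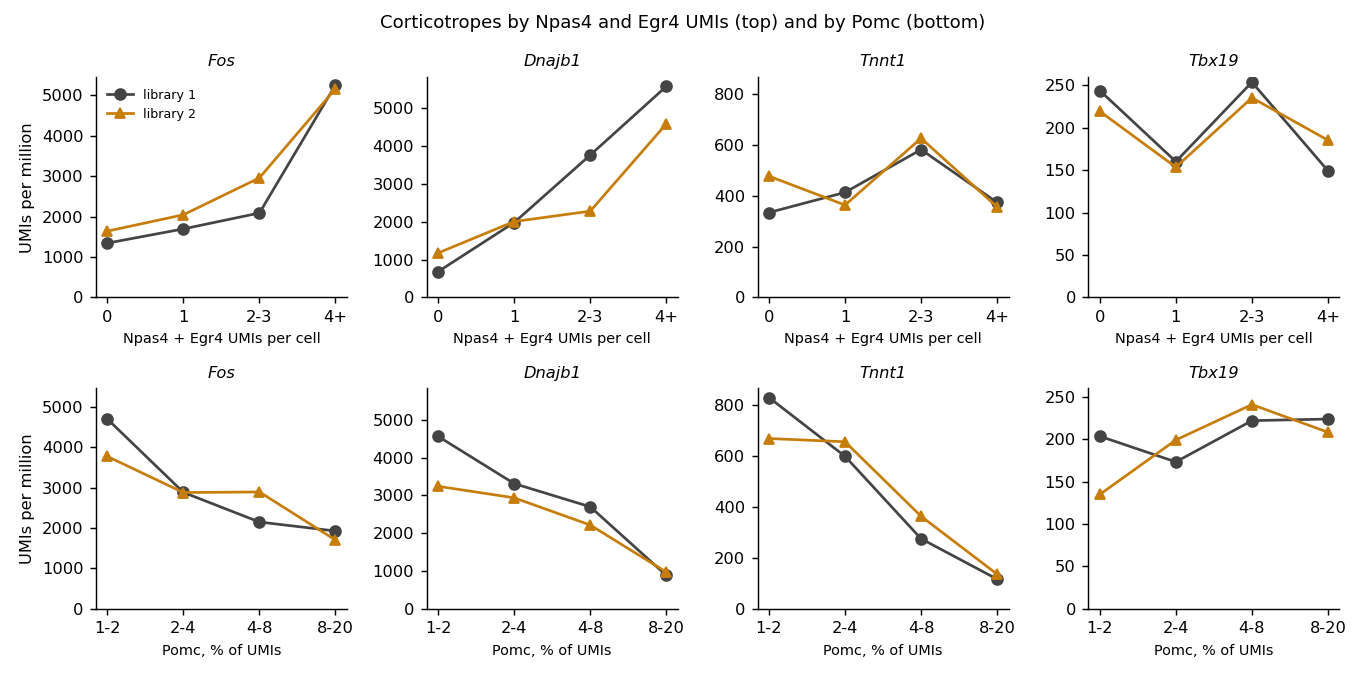
The y axis gives UMIs per 1000000 UMIs outside the genes of the gates and the split (UPM). Shown are Fos, Dnajb1, Tnnt1 and Tbx19 in corticotropes binned by their Npas4 and Egr4 UMIs (top) and by the percentage of all UMIs from Pomc (bottom). Library 1 is given as grey circles and library 2 as orange triangles. Fos and Dnajb1 are higher at each step of the upper panels in both libraries, Tnnt1 is lowest in the class with 8 to 20% Pomc, at 116 and 136, and Tbx19 has no common order.

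At the edges of the gate, active shares were as follows. With 1 to 1.5% Pomc, 12 and 29 cells were inside and 75% and 62.1% of them were active, while with 0.5 to 1% Pomc 17 and 11 cells were outside and 64.7% and 63.6% were active. At 15 to 20% Pomc, 12 and 15 cells were inside and 25% and 40.0% were active, while above 20% Pomc 27 and 22 cells were outside and 11.1% and 22.7% were active. In the gate 518 cells had no Pcsk2 UMI and 14 had 1, and just outside it 1 and 4 cells had 2.

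The same split was made in the other hormone populations so that corticotropes could be compared with them. In active somatotropes 278 genes were called (2.78%), 248 higher (2.48%) and 30 lower (0.3%). In lactotropes 50 were called (0.5%), 48 higher (0.48%) and 2 lower (0.02%), and in gonadotropes 65 (0.65%), 55 higher (0.55%) and 10 lower (0.0999%). In melanotropes, with 11 and 23 active cells, edgeR called 0 (0.0%) and DESeq2 1. There 512 of 10006 genes had an unadjusted edgeR p under 0.05, about the share that this threshold passes when nothing differs. Of the immediate early list, 20 of 25 members rose in somatotropes, 6 in lactotropes and 11 in gonadotropes, with medians of 1.35, 0.68 and 1.24 on the log2 scale. Of the heat shock list, 10 of 12 rose in somatotropes and in lactotropes and 3 in gonadotropes. These counts depend on the number of cells and do not by themselves show a difference.

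The difference itself was tested as an interaction: active minus quiet in corticotropes against the mean of the same in the 4 other populations. Of 10006 genes, 60 passed (0.6%), 51 higher (0.51%) and 9 lower (0.0899%) in corticotropes. No immediate early factor of the list was among them, which does not show that their response was equal. For Egr2 the interaction was 3.17 ± 1.08 on the log2 scale (edgeR adjusted p = 0.21). Values without melanotropes are given below only for called genes. For Fos the interaction was 0.16 on the log2 scale (adjusted p = 0.96). It was positive for 4 genes of endoplasmic reticulum stress, Ddit3 (1.32 ± 0.21, adjusted p = 1.93e-06), Herpud1 (1.02 ± 0.19), Atf4 (0.95 ± 0.19) and Manf (0.56 ± 0.12). It was also positive for the chaperone genes Hspe1 (0.82 ± 0.11) and Hsp90aa1 (0.52 ± 0.10) and for Gadd45b (1.47 ± 0.24), Gadd45g (1.21 ± 0.30), Rgs4 (2.01 ± 0.54) and Zfp36 (1.29 ± 0.29). It was negative for Ndufa4 (-0.71 ± 0.13, edgeR adjusted p = 7.90e-05) and Mrpl34 (-0.95 ± 0.25). A positive value is relative to a mean and need not be the largest rise. Hsp90aa1 rose by 1.27 in corticotropes and by 1.37 in somatotropes. Zfp36 rose by 2.42 in corticotropes and by 3.21 in gonadotropes. Hspe1, Gadd45b, Gadd45g and Rgs4 had their largest log2 difference in corticotropes.

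For Ddit3, the log2 difference of active over quiet was 2.05 ± 0.14 in corticotropes, 1.41 in somatotropes, 0.44 in lactotropes, 1.51 in gonadotropes and -0.47 ± 0.56 in melanotropes. It was thus highest in corticotropes and negative only in melanotropes, where it did not pass. Since the melanotrope term rested on 11 and 23 active cells, the interaction was repeated without melanotropes, a choice made after seeing the data. Then 72 genes passed, 40 of them among the first 60. Ddit3 (0.93 ± 0.17), Herpud1 (0.74 ± 0.17), Atf4 (0.73 ± 0.16), Hspe1 (0.87 ± 0.11), Hsp90aa1 (0.46 ± 0.10), Gadd45b (1.09 ± 0.22), Gadd45g (1.33 ± 0.23) and Ndufa4 (-0.56 ± 0.13) stayed called, while Manf, Rgs4, Zfp36 and Mrpl34 did not. The interaction calls also depended on how activity was read: with Npas4 alone 19 of the 60 were called again, and with at least 2 UMIs of the pair 14 of the 58 that could be tested.

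Corticotropes as a whole were also set against melanotropes, the other cells that make Pomc. Of 12556 genes, 2693 passed (21.4%), 1259 higher (10.0%) and 1434 lower (11.4%) in corticotropes. The 2 populations also differed in their active shares, and only corticotropes had the upper limit of 20% Pomc. The part of either in these calls was not tested. On the higher side, the cardiac troponin gene Tnni3 stood at 98.0 and 85.6 CPM in corticotropes and at 0 in both libraries of melanotropes, at least 35.6-fold higher with a floor of 3 counts over the group. Tnnt1 stood at 373 and 427 CPM in corticotropes against 5.92 and 7.06 CPM in melanotropes (log2 difference 5.92 ± 0.45), and the tropomyosin gene Tpm2 at 44.9 and 58.3 CPM against 0 and 0. Tnnt1 and Tnni3 are neighbours on chromosome 7, 1923 bases apart. The other named genes of the higher side were Crhr1, the glypican gene Gpc5, Tgif1, Irs4, Figf, the circadian repressor gene Ciart and Sbk2.

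The glucocorticoid receptor separated the populations too. Nr3c1 stood at 215 and 168 CPM in corticotropes against 9.86 and 18.4 CPM in melanotropes, a log2 difference of 3.67 ± 0.25 (adjusted p = 1.03e-15). Of the 11 glucocorticoid genes 8 were higher and none lower in corticotropes. Neurod1, a factor of early Pomc cells, stood at 89.8 and 59.7 CPM in corticotropes against 1.97 and 1.41 CPM in melanotropes, and at 71.6 and 54.4 CPM in gonadotropes. Tbx19 was shared, at 200 and 193 CPM in corticotropes against 90.7 and 100 CPM in melanotropes. Of 26 immediate early factors, 21 passed as higher and 0 as lower, and all 12 heat shock genes passed as higher. On the lower side stood Pax7, the selector gene of the melanotrope fate, at 0 and 0.719 CPM in corticotropes against 120 and 113 CPM in melanotropes. Crisp1 and Enc1 were listed at 0 in both corticotrope libraries, at least 95.8-fold and 72.1-fold lower, and Oacyl, Gulo, Lpl, Ppp1r17, Megf11, Gabra2 and Nell1 had log2 differences between -9.35 and -5.02. Corticotropes were also poorer in the processing list, with 7 of 10 genes lower and none higher. The granin gene Chga stood at 274 and 283 CPM in corticotropes against 2294 and 1910 CPM in melanotropes, and Pam at 186 and 113 CPM against 824 and 456 CPM.

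Against the mean of all 4 other hormone populations, a comparison that uses the same corticotrope sums, 3948 of 12556 genes passed (31.4%), 2026 higher (16.1%) and 1922 lower (15.3%). Under DESeq2 with its size factors the split was 2027 higher and 1257 lower. The gene with the largest fold over the next highest population was Tnni3, 101-fold above lactotropes, followed by Gpc5 (75.9-fold above gonadotropes), Crhr1 and Tnnt1 (67.2-fold and 61.6-fold above melanotropes) and Tpm2 (51.3-fold above gonadotropes). Some of these references are below 2 CPM, so the folds are imprecise. Acbd7, Doc2g, Rprml, Maff, Smim5 and Tekt1 were also among the 12, from 5.60-fold to 12.7-fold. Maff, which also rose in active corticotropes, stood at 80.6 and 89.9 CPM in corticotropes and 13.6 CPM or less in the other hormone populations.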

How the data were processed

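Messenger RNA 3′ ends of single pituitary cells were counted in 2 libraries. The authors deposited whole-number UMI counts per gene and cell, with t-SNE coordinates (a score with no unit). Per the submitters' processing notes, Cell Ranger, STAR and mm10 were used; no source used here states their versions. Barcode suffixes were read as pool numbers. Corticotropes and lists were chosen with earlier results of these data known.

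Counts were summed per library, population and state after 1:1 depth matching (log2 caliper 0.25). They were tested with edgeR 4.0.16 in R 4.3.3 (TMM, expression filter, robust quasi-likelihood, Benjamini-Hochberg adjustment at 0.05), with library as a block, since every sum of a library comes from the same pool. The 8 genes of the gates and split were left out of tests and totals. The other populations were gated on Pomc, Pcsk2, Gh, Prl, Cga, Lhb and endothelial markers. Melanotropes had at least 1% Pomc and at least 2 Pcsk2 UMIs, without the upper Pomc limit set for corticotropes. The test was tried on simulated counts with 200 genes changed 2-fold or 4-fold. For active against quiet corticotropes, 9 of 151 calls were false there. Intervals cover counting error only.

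Genes named in the text are the 15 highest and 10 lowest calls with at least 50 CPM (10 and 10 against melanotropes, 12 against the next highest population, of which 1 is not reported here, 5 and 5 for the interaction) and list members; Ciart also met the rule against melanotropes. Alternatives were DESeq2 1.42.0, other filters, gates, splits, thinning, doublet removal (the highest 7.6% of scores, since Scrublet called 1 cell in library 1) and blocks. Sequences are from RefSeq, GRCm38.p6; positions are from GENCODE.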

Additional observations from a re-analysis of the deposited data

Results flagged for a closer look

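The interaction between activity and population set 60 genes apart, those whose active minus quiet difference in corticotropes differed from the mean of the 4 other hormone populations at an adjusted p of 0.05 (edgeR). Because the melanotrope term rested on 11 and 23 active cells, each value is followed by the one without melanotropes, an alternative chosen after seeing the data. No explanation was tested for any of them.

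Irf1, an interferon-responsive transcription factor gene, stood at 113 and 112 CPM in active corticotropes against 25.7 and 30.4 CPM in quiet ones, and its interaction was 2.14 on the log2 scale (1.53 without melanotropes, adjusted p = 7.09e-03). Id3, an inhibitor of helix-loop-helix factors, stood at 11.5 and 11.4 CPM in active corticotropes against 21.0 and 72.7 CPM in quiet ones, with an interaction of -4.71 (-3.09 without melanotropes, adjusted p = 5.51e-06). Gng11, a G protein subunit gene, had an interaction of -1.67 (-1.67 without melanotropes, adjusted p = 0.030), and Npepl1, an aminopeptidase-like gene, of -2.28 (-2.53 without melanotropes, adjusted p = 7.15e-03). These 4 stayed called.

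The calls of the other 6 were lost without melanotropes. Ascc3 had an interaction of 3.93 (2.17 without melanotropes), Cep57 of 3.15 (1.05), Jmy of 3.10 (2.57), and the phosphatase gene Dusp8 of 3.07 (0.63). Mgmt had an interaction of -4.07 (-2.16 without melanotropes) and the immunoproteasome gene Psmb9 of -3.20 (-1.18). Dusp8 itself differed by 1.96 between active and quiet corticotropes, 1.52 in somatotropes, 1.24 in lactotropes and 1.26 in gonadotropes.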

How the results depend on the processing

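Samples were paired by library. With no replicate block, 231 genes differed between active and quiet corticotropes, 30 in the interaction, 2563 against melanotropes and 3780 against the other hormone populations, and with a block per population the interaction called 105. The count of 277 genes was 174 when activity was read after thinning to 2000 UMIs (143 of the 264 calls that could be tested were shared) and 22 with Egr4 alone, which left 2665 genes tested. It lay between 227 (DESeq2) and 327 (block per population) in the other alternatives. The interaction count of 60 was 95 with all quiet cells, 23 with at least 2 UMIs, 23 with Npas4 alone and 0 by edgeR with Egr4 alone, where 110 of 2665 genes had an unadjusted p under 0.05; DESeq2 was not run on that split. The active share of 50.5% was 39.6% after thinning, 49.5% with the stricter gate and 36.7% with at least 2 UMIs, and between 49.8% and 51.1% with either library left out. Of the values followed for active against quiet cells, 760 kept their direction and call, 133 lost the call and 3 reversed: Aldoc (0.57) and Hsd11b1 (0.47) with all quiet cells, and Tbx19 (0.025, never called) after thinning. With Npas4 alone 16 followed interaction values lost their call and 6 kept it, and with at least 2 UMIs 15 lost it and 5 kept it. In the interaction over all alternatives, 149 kept direction and call, 113 lost the call and 3 reversed with Egr4 alone: Hsp90aa1 (-0.25), Ddit3 (-0.011) and Zfp36 (-0.47). Unless stated, the cause was not tested. With 2 pools of mice and medians of 4393 and 4166 UMIs per corticotrope, differences in genes under about 30 CPM were poorly resolved.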
